A study of Mus musculus with 18 samples.

Results

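Atorvastatin and rosuvastatin were compared directly in the livers of 12 mice, 6 given atorvastatin and 6 given rosuvastatin, out of 18 mice in the whole series. The members were taken from the treatment named in the sample titles. All gene probes of the array that were above background were compared between them, which came to 188 probes for 184 genes. Both drugs are statins, which block an early step of cholesterol synthesis. They share a dihydroxy acid side chain but are built on different rings, a pyrrole in atorvastatin and a pyrimidine in rosuvastatin.

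All animals were female C57BL/6 mice aged 16 weeks that had eaten a diet with 1% cholesterol for 1 week. The first group of 6 received 40 mg/kg atorvastatin once by mouth in tap water, and the second group of 6 received 20 mg/kg rosuvastatin in the same way. A further group of 6 received tap water alone (vehicle) and serves here as background. Mice were killed 24 h later and RNA was taken from the left lateral lobe of the liver. Drug and dose changed together, so they cannot be told apart. Each array carried the Cy3-labelled cDNA of 1 mouse against a Cy5-labelled pool of all samples, so a value is a log2 ratio of that mouse over the pool, and a difference of 1 on this scale is a doubling. No dyes were swapped. The labels describe every array as a separate mouse. In whole liver, fewer cells of a type and less RNA per cell cannot be told apart.

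When cells run short of sterols, SCAP carries the SREBP transcription factors out of the endoplasmic reticulum, proteases cut them, and the freed part raises transcription of the cholesterol synthesis genes. INSIG proteins hold SCAP back when sterols are plentiful. A cholesterol-rich diet therefore represses these genes in liver, whereas blocking synthesis with a statin relieves the repression. SREBP acts on promoters together with the factor NF-Y, which binds CCAAT boxes, and a classical sterol regulatory element contains CACCCCAC. Drug-metabolising cytochromes P450 are controlled by the xenobiotic receptors PXR (Nr1i2) and CAR (Nr1i3).

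Promoters of 3 cholesterol synthesis genes with large differences between the statins are shown so that the letters those factors read can be seen. They are not the 3 largest differences, since Fdps and Nsdhl, with larger differences than Hmgcs1, are not shown. Each is the stretch of 250 bases before the gene start from RefSeq (GRCm38.p6), in the direction of the gene, with CCAAT, CACCCCAC and their reverse complements in capitals. No match of one motif overlapped a match of the other in them. Hmgcs1 lies at chr13:119690101-119690350 on the + strand, Msmo1 at chr8:64733579-64733828 on the - strand and Cyp51 at chr5:4104698-4104947 on the - strand.
Hmgcs1: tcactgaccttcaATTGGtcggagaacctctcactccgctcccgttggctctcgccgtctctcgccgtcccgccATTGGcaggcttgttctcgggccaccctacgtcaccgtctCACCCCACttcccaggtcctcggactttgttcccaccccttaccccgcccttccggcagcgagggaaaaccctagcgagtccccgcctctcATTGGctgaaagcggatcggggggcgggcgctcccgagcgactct
Msmo1: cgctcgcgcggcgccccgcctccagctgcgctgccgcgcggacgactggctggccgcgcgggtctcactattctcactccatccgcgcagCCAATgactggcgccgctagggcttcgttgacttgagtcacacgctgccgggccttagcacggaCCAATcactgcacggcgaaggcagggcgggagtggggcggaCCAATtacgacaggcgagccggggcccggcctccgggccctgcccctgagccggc
Cyp51: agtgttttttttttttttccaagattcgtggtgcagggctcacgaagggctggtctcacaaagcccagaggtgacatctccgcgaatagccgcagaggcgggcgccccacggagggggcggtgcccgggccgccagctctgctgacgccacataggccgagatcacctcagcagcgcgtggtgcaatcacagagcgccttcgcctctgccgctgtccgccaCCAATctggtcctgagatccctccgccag
Hmgcs1 and Msmo1 hold 3 CCAAT boxes each and Cyp51 holds 1. Of the 16 measured cholesterol synthesis genes, 12 had a promoter in the table and 11 of these held CCAAT on either strand in any of their promoters. Of all 32851 promoters, 33.8% did. CACCCCAC was found for 2 of the 12, Hmgcs1 and Acat2, and in 2.58% of all promoters. The list is counted by gene and the whole set by promoter, so these shares are not like for like. These matches are a description of letters and not of binding.

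Across the arrays, 155 to 218 of the 289 gene probes were above background, and the median sample intensity of gene spots was 206 to 376. Hepatocyte genes were measured in all mice, with Alb and Apoa1 among the 5 hepatocyte markers that passed. None of the leukocyte and cholangiocyte markers in the lists used are on the array, and of 4 adipocyte markers only Adipoq passed. The array does carry the macrophage gene Msr1, which was not in those lists. Arrays atorvastatin 4 and vehicle 5 stood apart. The median correlation with the other arrays over the tested probes was -0.46 for atorvastatin 4, and 0.01 when the serum amyloid A probes Saa1, Saa2 and Saa3 were left out. For vehicle 5 it was 0.25, and -0.08 without these probes, and this array had the lowest weight of the 18 (0.26) when limma weighted arrays by how closely they follow the fit. The labels give the same dyes for all arrays, and a control transcript spiked in at a fixed ratio (Lratio6) read 1.53 on atorvastatin 4 and 1.28 to 2.71 elsewhere. The sign of its ratios was therefore left as it stands, and results are given without atorvastatin 4 where they move. Arrays also differed in the size of the local background ring, with a median of 197 pixels on 11 arrays (3 atorvastatin, 4 rosuvastatin, 4 vehicle). Values within these 11 arrays are given as those of the 197-pixel arrays. Their statin mice are atorvastatin 2, 5 and 6 and rosuvastatin 1, 2, 5 and 6. Of the other ring sizes only 228 pixels held both statins, with atorvastatin 1 and 4 and rosuvastatin 4.

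The direct comparison asks whether livers after atorvastatin and rosuvastatin differed in transcript level. No probe did at an adjusted p of 0.05 (0 of 188 probes, 0%), and the smallest adjusted p was 0.653 (limma, Benjamini-Hochberg). At an unadjusted p under 0.05 there were 10 probes (5.32%), 2 higher after atorvastatin (1.06%) and 8 lower (4.26%). Differences were above 0 for 98 probes (52.1%) and below 0 for 90 (47.9%), with a median of 0.01. The 95% interval lay within 0.5 of 0 for 137 probes and within 1 of 0 for 175, so for most genes a doubling or halving between the statins lay outside the interval. The exceptions were 13 probes, many of them for cholesterol synthesis and acute phase genes, whose intervals were wider or lay farther from 0. Against vehicle neither statin had a probe past the adjusted threshold (0% each), and both of those comparisons use the same vehicle mice.

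**Figure D1:**
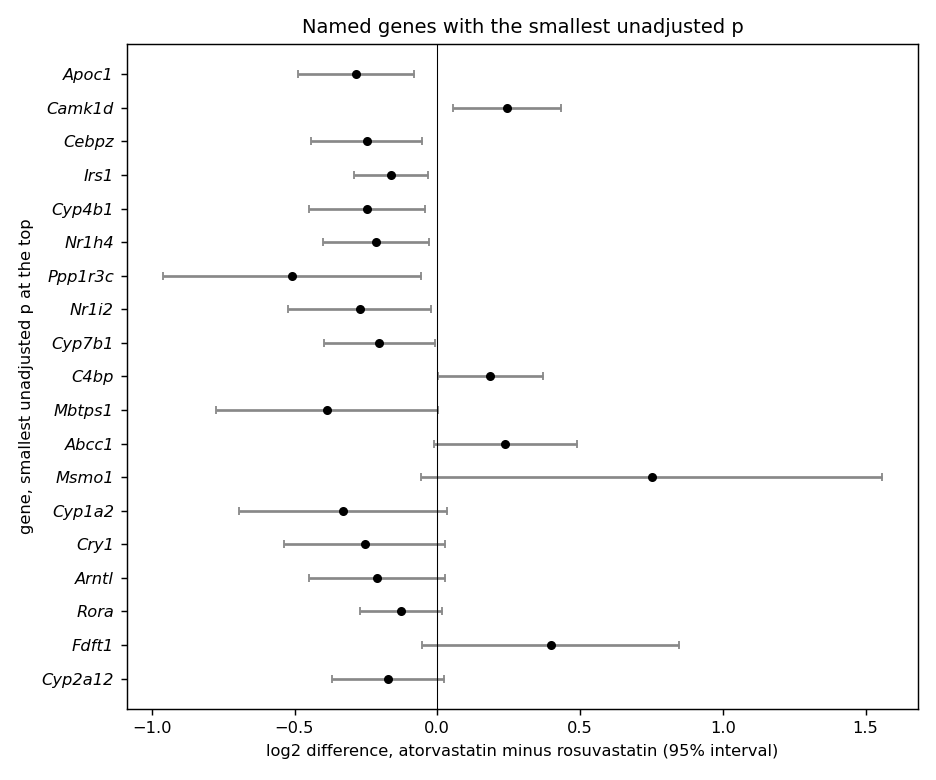
Log2 difference of atorvastatin minus rosuvastatin with its 95% interval (x axis) for 19 genes with the smallest unadjusted p (y axis), 6 mice in each group. The intervals of the upper 10 genes leave out 0, Ppp1r3c has the lowest difference (-0.51) and Msmo1 the highest (0.75) with the widest interval.

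Apoc1, an apolipoprotein of triglyceride-rich and high-density lipoproteins, had the smallest unadjusted p and was the only probe whose mice did not overlap (1 of 188, 0.532%). Its log2 ratio was -0.48 at the lowest, -0.22 at the median and -0.10 at the highest after atorvastatin, against -0.10, 0.05 and 0.17 after rosuvastatin, and -0.32, 0.05 and 0.20 in vehicle mice. The groups met at their edges, since atorvastatin 5 was at -0.104 and rosuvastatin 4 at -0.101. The difference was -0.28 (SE 0.10, 95% interval -0.49 to -0.08, unadjusted p = 0.00837 and adjusted p = 0.653 by limma). Within the 197-pixel arrays it was -0.34, within the 228-pixel arrays -0.22, and without atorvastatin 4 it was -0.27. Of the 11 measured genes for apolipoproteins and lipoprotein handling, 10 had a difference below 0 and 1 passed the unadjusted threshold, beside 5.32% of all probes. Their median was -0.08 against 0.01 over all probes, but -0.04 with 9 below 0 without rosuvastatin 4, -0.05 without atorvastatin 1 and -0.04 with 8 below 0 within the 197-pixel arrays. Apoc3, which inhibits lipoprotein lipase, had a median of -0.22 after atorvastatin and -0.06 after rosuvastatin, with overlapping mice and a difference of -0.17 (95% interval -0.41 to 0.07).

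Of the 7 measured bile acid genes, 2 were lower with an unadjusted p under 0.05, beside 4.26% of all probes. Nr1h4 encodes FXR, the nuclear receptor for bile acids. Its values after atorvastatin had a lowest of -0.32 and a median of -0.23, against -0.18 and 0.05 after rosuvastatin. All 6 atorvastatin mice were below the rosuvastatin mean, but the ranges overlapped, with rosuvastatin 1 among the atorvastatin mice and atorvastatin 5 close to the rosuvastatin mean. The difference was -0.21 (95% interval -0.40 to -0.03, unadjusted p = 0.0267, adjusted p = 0.653 by limma). Cyp7b1, an oxysterol hydroxylase of the alternative route to bile acids, was at -0.26, -0.05 and 0.25 (lowest, median and highest) after atorvastatin, against -0.02, 0.20 and 0.28 after rosuvastatin. The atorvastatin mice spanned almost the whole range, with mouse 3 near the top of both groups, and the difference was -0.20 (95% interval -0.40 to -0.01). Cyp7a1, the rate-limiting enzyme of the classical route, had medians of -0.05 after atorvastatin and 0.04 after rosuvastatin with wide overlap. Of the 7 measured genes of bile acid synthesis and its receptors, 3 had a difference above 0 and 4 below. Their median was -0.12, but -0.03 without atorvastatin 4, -0.04 without atorvastatin 2, -0.05 without rosuvastatin 3, -0.0015 without rosuvastatin 5, -0.08 without atorvastatin 3 and -0.21 without atorvastatin 1.

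Of the 16 measured glucose and insulin genes, 2 (Irs1 and Ppp1r3c) were lower with an unadjusted p under 0.05, beside 4.26% of all probes. Ppp1r3c targets protein phosphatase 1 to glycogen and promotes glycogen synthesis, and it had the lowest difference of all probes. After atorvastatin it was -1.13 at the lowest, -0.71 at the median and 0.06 at the highest, against -0.65, -0.02 and 0.33 after rosuvastatin and -0.44, -0.23 and 0.11 in vehicle mice. Atorvastatin mice 2, 4 and 6 were near or below -1 (-0.97, -1.13 and -1.05) while mouse 3 was above 0, and the groups overlapped. The difference was -0.51 (95% interval -0.96 to -0.06), and -0.41 without atorvastatin 4 (unadjusted p = 0.076, limma). Irs1, the insulin receptor substrate, had medians of -0.12 after atorvastatin and 0.01 after rosuvastatin, a difference of -0.16 (95% interval -0.29 to -0.03). It was above background on only 4 of 6 arrays in each statin group. The vehicle median was -0.09. Of the 16 measured glucose and insulin genes, 8 were above 0 and 8 below, with a median of -0.01.

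The remaining probes with an unadjusted p under 0.05 had varied roles. Camk1d, a calcium/calmodulin-dependent kinase, was -0.12, 0.02 and 0.15 (lowest, median and highest) after atorvastatin, against -0.54, -0.20 and 0.05 after rosuvastatin. Rosuvastatin 2 to 5 were below every atorvastatin mouse, with mice 2 (-0.54) and 4 (-0.40) lowest, while rosuvastatin 1 and 6 lay among them. The difference was 0.24 (95% interval 0.06 to 0.43) over all 12 mice and 0.13 within the 197-pixel arrays. These leave out rosuvastatin 3 and 4 and also atorvastatin 1, 3 and 4. Cebpz, a CCAAT-binding transcription factor, had medians of -0.09 after atorvastatin and 0.13 after rosuvastatin, a difference of -0.25 (95% interval -0.44 to -0.05). Its vehicle median of 0.14 was close to that of rosuvastatin. Cyp4b1, a cytochrome P450 of the fatty acid hydroxylase family, had medians of 0.02 after atorvastatin and 0.23 after rosuvastatin, with the vehicle median between them at 0.10. C4bp, a complement inhibitor made in liver, had a difference of 0.18 (95% interval 0.00 to 0.37) over all mice, 0.14 without atorvastatin 4 and 0.07 within the 197-pixel arrays.

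Cholesterol synthesis genes, led by Msmo1, Cyp51 and Fdps, had the largest positive differences outside the serum amyloid A genes. Of 16 measured, 14 were higher after atorvastatin and 2, Acat2 and Ebp, were lower, with a median of 0.27 against 0.01 over all probes. None passed even the unadjusted threshold in the comparison of all 12 mice. Without atorvastatin 4 the median was 0.35, again with 14 above 0. It was 0.19 with 11 above 0 and 5 below without rosuvastatin 4, and 0.18 with 14 above 0 without rosuvastatin 3, and within the 197-pixel arrays it was 0.22 with 13 above 0. The 228-pixel arrays, which set 2 atorvastatin mice against rosuvastatin 4 alone, gave 0.52 with 15 above 0. Against vehicle, the list's median difference was -0.10 for atorvastatin and -0.40 for rosuvastatin, with both measured against the same vehicle mice.

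Single mice were spread widely within each group. Msmo1, a C4-methyl sterol oxidase and the gene with the largest difference in the list, was -1.04 at the lowest, -0.08 at the median and 0.53 at the highest after atorvastatin, against -1.79, -0.69 and 0.10 after rosuvastatin and -1.71, -0.01 and 0.49 in vehicle mice. Rosuvastatin 3 (-1.79) and rosuvastatin 4 (-1.65) were below all atorvastatin mice, and the other rosuvastatin mice lay within the atorvastatin range. Its difference was 0.75 (SE 0.38, 95% interval -0.06 to 1.56, unadjusted p = 0.0664, adjusted p = 0.653 by limma) and 0.94 without atorvastatin 4 (unadjusted p = 0.026 by limma). Within the 197-pixel arrays, which leave out rosuvastatin 3 and 4 and also atorvastatin 1, 3 and 4, it was 0.50. Cyp51, the lanosterol demethylase, repeated the pattern with medians of 0.17 after atorvastatin and -0.42 after rosuvastatin, and with rosuvastatin 3 and 4 lowest at -1.42 and -1.20. All 6 rosuvastatin mice were below the atorvastatin mean of 0.02, while atorvastatin 4 was at -0.72. The difference was 0.66 (95% interval -0.12 to 1.44).

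Fdps, which makes farnesyl diphosphate, was -1.08 at the lowest, 0.06 at the median and 0.19 at the highest after atorvastatin, against -1.71, -0.50 and 0.28 after rosuvastatin. Vehicle mice were spread even more widely, at -1.82, 0.41 and 1.37, and all 3 groups overlapped. The interval of its statin difference (0.49) ran from -0.49 to 1.48. Fdft1, squalene synthase, had a narrower spread, with medians of 0.00 after atorvastatin and -0.38 after rosuvastatin and a difference of 0.40 (95% interval -0.05 to 0.85). Hmgcs1, the cytosolic HMG-CoA synthase whose promoter is printed above, had medians of 0.18 after atorvastatin and -0.22 after rosuvastatin, and Nsdhl, a sterol dehydrogenase, 0.18 and -0.19. Their differences were 0.42 (95% interval -0.19 to 1.03) and 0.45 (95% interval -0.25 to 1.14). Lanosterol synthase (Lss) had a difference of 0.30 with an interval from -0.29 to 0.89.

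Other enzymes of the pathway differed less. Differences were 0.08 for mevalonate kinase (Mvk), 0.11 for Mvd, 0.14 for Idi1, 0.10 for Sc5d and 0.13 for Dhcr7, which makes cholesterol in the last step of one of its branches. All of these intervals spanned 0, and atorvastatin 2 alone at 0.99 raised the Idi1 mean. Acat2, the thiolase that makes acetoacetyl-CoA at the start of the pathway, had a difference of -0.11 and the sterol isomerase Ebp of -0.07.

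The same mice were low across the pathway. Atorvastatin 4 was the lowest of its group for all 16 measured genes. Rosuvastatin 3 and 4 were the lowest pair of their group for 14 of the 16, and vehicle 5 was the lowest of its group for 13. The median of the 16 genes in a mouse was -0.56 in atorvastatin 4, and between -0.18 and 0.23 in the other atorvastatin mice. It was -0.66 and -0.71 in rosuvastatin 3 and 4 and between -0.20 and 0.16 in the other rosuvastatin mice. In vehicle 5 it was -0.65. The rosuvastatin group thus held a pair of low mice, where the atorvastatin and vehicle groups held 1 each. The part of this imbalance in the statin difference was not tested.

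**Figure D2:**
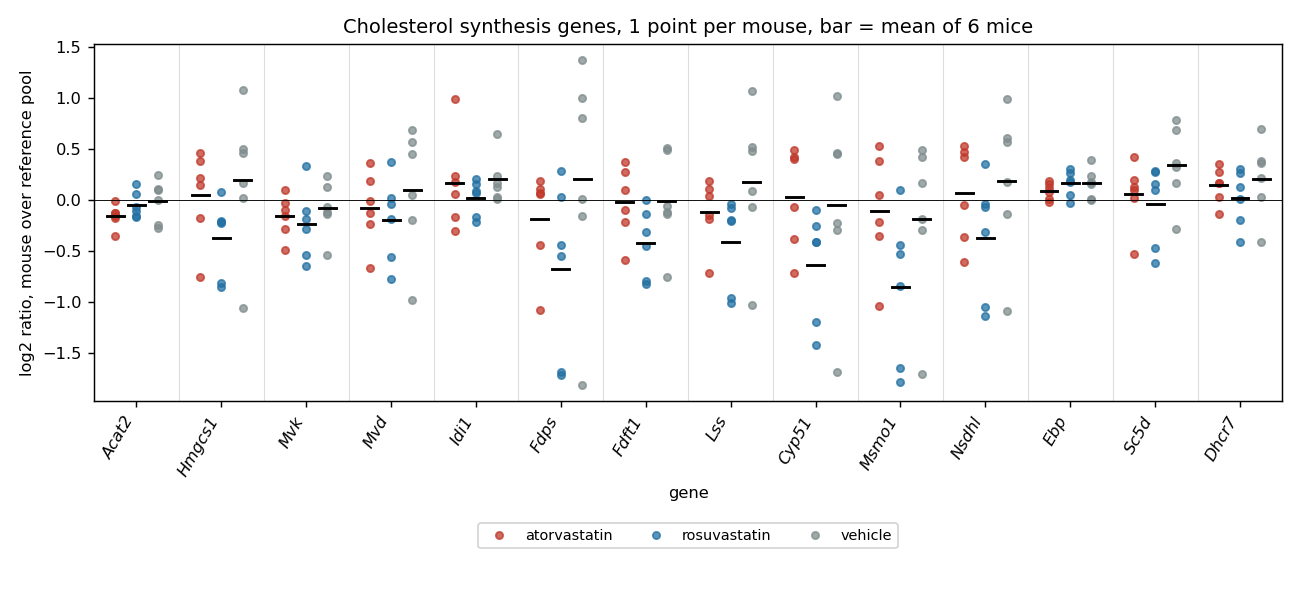
Log2 ratio of each mouse over the reference pool (y axis) for 14 cholesterol synthesis genes in pathway order (x axis), with 1 point per mouse and a bar at the mean of 6 mice for atorvastatin (left), rosuvastatin (middle) and vehicle (right). For Fdps, Cyp51 and Msmo1 a pair of rosuvastatin mice lies below -1, with 1 or no atorvastatin mouse and 1 vehicle mouse below -1.

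The SREBP pathway itself gave a mixed picture, with 3 of 5 measured genes above 0 and 2 below. Insig1, which retains SCAP and is itself an SREBP target, was -0.54, 0.08 and 0.54 (lowest, median and highest) after atorvastatin, against -1.19, 0.10 and 0.26 after rosuvastatin. The medians were nearly equal, and rosuvastatin 3 (-1.14) and 4 (-1.19) alone were lower than every atorvastatin mouse. The difference was 0.34 (95% interval -0.30 to 0.97) over all mice and 0.08 within the 197-pixel arrays. Insig2, the isoform that does not depend on SREBP in this way, had a difference of the other sign. It was -0.70, -0.16 and 0.22 after atorvastatin, against -0.25, 0.07 and 0.73 after rosuvastatin, a difference of -0.36 (95% interval -0.77 to 0.06). Mbtps1, the site-1 protease that cuts SREBP, had a difference of -0.39 (95% interval -0.77 to 0.00), with atorvastatin 2 at -1.28 and 3 at -0.60, while the lowest rosuvastatin mouse was at -0.19. It was above background on 3 of 6 atorvastatin and 4 of 6 rosuvastatin arrays, and in the table of log2 ratios that was deposited its difference was 0.08. Scap had a difference of 0.12 (95% interval -0.08 to 0.33).

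Drug-metabolising P450s were mostly lower after atorvastatin. Of 17 measured genes, 14 had a difference below 0 and 3 above, with a median of -0.16 against 0.01 over all probes. No member passed the unadjusted threshold. Without atorvastatin 4 the median was -0.12 with 15 below 0, without atorvastatin 2 it was -0.10 with 16 below 0, and within the 197-pixel arrays it was -0.11 with 12 below 0. The 228-pixel arrays gave a median of -0.0036 with 9 below 0 and 8 above. For 13 of the 17 the 95% interval lay within 0.5 of 0. Against vehicle, the list's median difference was -0.07 for atorvastatin and 0.09 for rosuvastatin.

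Cyp3a11, the main drug-metabolising CYP3A of mouse liver, was -0.82 at the lowest, 0.40 at the median and 1.07 at the highest after atorvastatin, against 0.28, 0.86 and 1.10 after rosuvastatin and 0.04, 0.53 and 0.69 in vehicle mice. Atorvastatin 2 was the only mouse below 0 in any group. The other atorvastatin mice lay within the rosuvastatin range. The difference was -0.40 (95% interval -0.90 to 0.09), and -0.17 without atorvastatin 2. Its reference channel was saturated on all 12 statin arrays, so the pool signal was capped and the size of the ratio is uncertain. The effect of this on the difference was not tested. Cyp3a41a, a female-specific CYP3A close in sequence to Cyp3a11, showed the same low mouse (atorvastatin 2 at -0.98) and a difference of -0.31, which was -0.08 without that mouse. A cDNA probe may bind transcripts of both. Cyp3a25 and Cyp3a13 had differences of -0.17 and -0.19 with intervals that spanned 0.

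Cyp1a2, a constitutive P450 of hepatocytes that is induced through the aryl hydrocarbon receptor, reached -0.37 at the lowest and 0.33 at the highest after atorvastatin, against -0.37 and 0.74 after rosuvastatin. Only rosuvastatin 4 of its group was below 0.20, and the difference was -0.33 (95% interval -0.69 to 0.04). In the CYP2A and CYP2B families, differences were -0.17 for Cyp2a12, -0.18 for Cyp2a4, -0.23 for Cyp2b13, -0.16 for Cyp2b9 and -0.11 for Cyp2b10, the classical CAR target. In Cyp2b10 atorvastatin 6 was at 0.25 and the other atorvastatin mice lay between -0.01 and 0.09, whereas the rosuvastatin mice ran from -0.19 to 0.43. Family members of CYP2B and CYP2A are close in sequence, and these probes may share transcripts. Cyp2e1, Cyp2d22 and Cyp2g1 were the 3 genes above 0, each by less than 0.04.

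**Figure D3:**
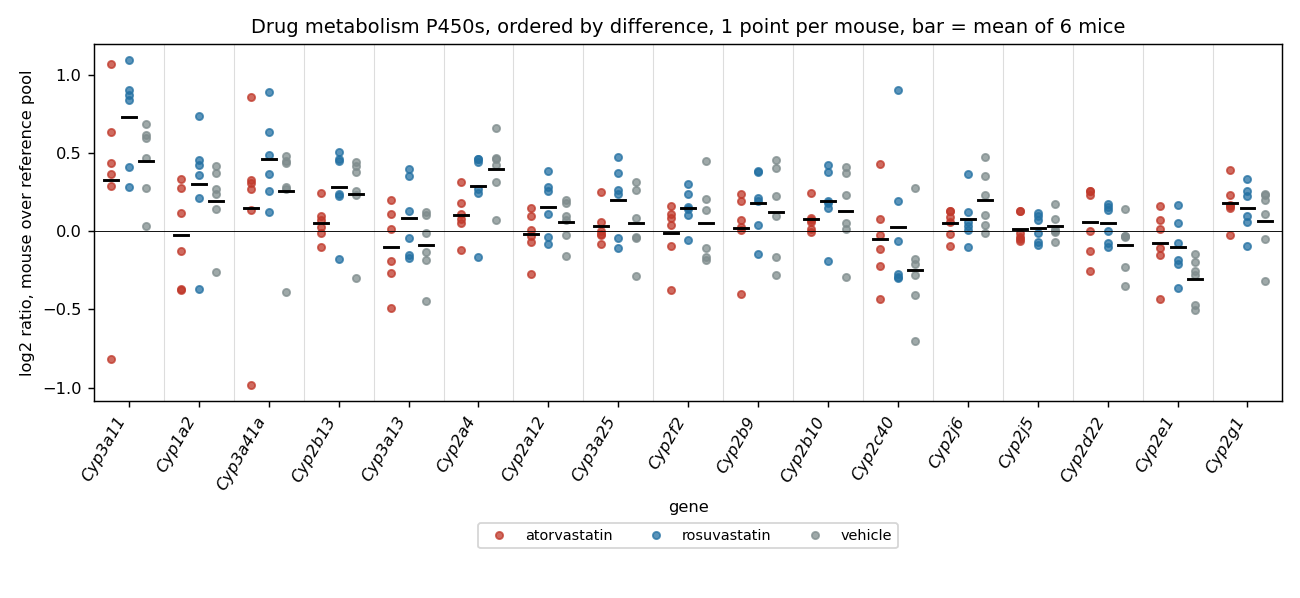
Log2 ratio of each mouse over the reference pool (y axis) for 17 drug-metabolising P450 genes ordered by the difference atorvastatin minus rosuvastatin (x axis), with 1 point per mouse and a bar at the mean of 6 mice for atorvastatin (left), rosuvastatin (middle) and vehicle (right). The bar of atorvastatin lies below that of rosuvastatin for 14 genes, and 1 atorvastatin mouse is far below the rest for Cyp3a11 and Cyp3a41a.

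Of the receptors above these enzymes, PXR (Nr1i2) was -0.17, -0.11 and 0.11 (lowest, median and highest) after atorvastatin, against -0.01, 0.12 and 0.73 after rosuvastatin. Vehicle mice ran from -0.46 to 0.12. Vehicle 1 to 4 lay below every atorvastatin mouse, vehicle 6 among them and vehicle 5 just above them. Rosuvastatin 3 was the high mouse, and rosuvastatin 1, 4 and 6 lay within the atorvastatin range. The difference was -0.27 (95% interval -0.52 to -0.02, unadjusted p = 0.0356, adjusted p = 0.653 by limma), and -0.17 without rosuvastatin 3. With the background subtracted directly it was -0.65, and the probe was above background on 3 of 6 arrays in each group. CAR (Nr1i3) had medians of -0.03 after atorvastatin and 0.06 after rosuvastatin with a difference of -0.10 (95% interval -0.35 to 0.15). Their partner Rxra (0.16) and the hepatocyte factor Hnf4a (0.25, 95% interval -0.05 to 0.54) had differences above 0. In all, 6 of the 8 receptors and partners were above 0 and 2 below, with a median of 0.04.

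Acute phase and complement genes were higher after atorvastatin for 15 of 16 measured members, with a median of 0.18, but 1 mouse accounted for the largest values. Saa1, which encodes an acute phase apolipoprotein that the liver releases in inflammation, was -5.87 at the lowest, -5.17 at the median and 1.65 at the highest after atorvastatin, against -5.65, -5.40 and -3.47 after rosuvastatin and -5.56, -4.47 and -1.44 in vehicle mice. The value of 1.65 was that of atorvastatin 4, and the next mouse of its group, atorvastatin 5, was at -3.10. The difference of 1.22 (95% interval -1.04 to 3.48) was 0.11 without atorvastatin 4. Saa2 (1.20, and 0.10 without that mouse) and Saa3 (1.20, and 0.19) moved with it. Saa1 and Saa2 are near-identical, and their probes may not separate them. The 197-pixel arrays leave out atorvastatin 4, but also the low atorvastatin 1 (-5.74) and 3 (-5.87), the high rosuvastatin 3 (-3.47) and rosuvastatin 4. Within them the Saa1 difference was 1.00, with atorvastatin 2 and 5 above the 4 rosuvastatin mice and atorvastatin 6 (-5.66) just below them.

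Atorvastatin 4 was also the highest of its group for 14 of the 16 genes. The acute phase reactants Orm1 and Apcs were at 0.26 and 0.36 in that mouse, with group medians of -1.06 and -0.99 after atorvastatin against -1.23 and -1.15 after rosuvastatin. Without this mouse the median difference of the list was 0.09 with 13 members above 0, and within the 197-pixel arrays it was 0.16 with 14 above 0. In the 228-pixel arrays, which include atorvastatin 4, it was 0.33. Rosuvastatin 3 was the highest of its group for 12 of the 16 and vehicle 5 for 12. These 3 mice were also among those lowest in cholesterol synthesis genes, whereas rosuvastatin 4, as low in that pathway, had a Saa1 value of -5.34 within the rest of its group. Stat3, the transcription factor that drives acute phase genes, was at 0.41 in atorvastatin 4 and between -0.31 and -0.05 in the other atorvastatin mice.

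**Figure D4:**
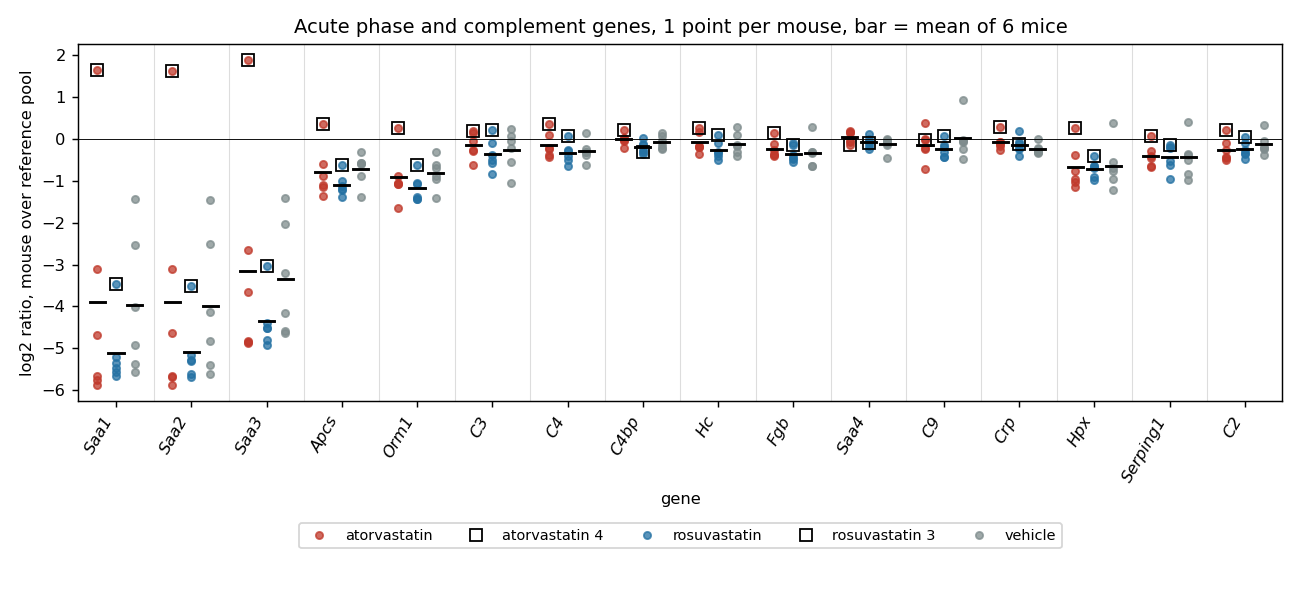
Log2 ratio of each mouse over the reference pool (y axis) for 16 acute phase and complement genes ordered by the difference atorvastatin minus rosuvastatin (x axis), with 1 point per mouse, a bar at the mean of 6 mice for atorvastatin (left), rosuvastatin (middle) and vehicle (right), and squares around atorvastatin 4 and rosuvastatin 3. Atorvastatin 4 lies above 1 for Saa1, Saa2 and Saa3, where all other mice lie below -1.

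Clock genes, transporters and reference genes completed the comparison. Cry1 (-0.25), Arntl (-0.21) and Rora (-0.13) were below 0 and Nr1d2 (0.44, 95% interval -0.11 to 0.99) and Clock (0.03) above, none with an interval that left out 0. All mice were dosed in the morning per the labels and killed 24 h later, so killing also fell in the morning. The exact hours were not compared. Slco1a1, a hepatic uptake carrier of organic anions, had a difference of -0.38. Rosuvastatin 4 was highest at 1.10, with atorvastatin 3 next at 0.77. Atorvastatin 1 (-0.57), 4 (-0.59) and 6 (-0.63) were below every rosuvastatin mouse. The Slco1a1 probe was above background on 1 of 6 atorvastatin and 4 of 6 rosuvastatin arrays. Abcc1, an efflux pump, had a difference of 0.24 with atorvastatin 4 alone at 0.34. Of 16 transporters 6 were above 0 and 10 below. In fatty acid synthesis and oxidation 5 of 8 were above 0, and the fatty acid synthase gene Fasn ran from -1.56 to 0.62 after atorvastatin and from -1.54 to 1.47 after rosuvastatin. The 4 reference genes were all below 0 by their highest-intensity probe, led by Actb (-0.32, 95% interval -0.72 to 0.09), with a median of -0.16. Rosuvastatin 5 was the highest for this Actb probe at 0.92. The other Actb probe overlapped widely, from -0.22 to 0.54 after atorvastatin and from -0.30 to 0.78 after rosuvastatin. The part of the shift of the reference genes in the other lists below 0 was not tested.

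The human TUBB2B probe, whose mouse target is not given, was among the 5 lowest differences (-0.46, 95% interval -1.02 to 0.10). Cytokine and stress kinase genes (3 above 0 and 4 below) had a median of -0.02, beside 0.01 over all probes. The steroidogenesis list had a median of 0.10 (3 above and 1 below). It held Cyp11a1, Cyp17a1 and Cyp21a1, and also Cyp26a1, which acts on retinoic acid and is not steroidogenic. The adipocyte marker Adipoq had a difference of 0.08.

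Spread between mice was of similar size in both statin groups. The median SD over probes was 0.163 after atorvastatin, 0.189 after rosuvastatin and 0.223 in vehicle mice. It was higher after atorvastatin for 90 of 188 probes, and for 75 when atorvastatin 4 was left out. Atorvastatin 4 was the highest or lowest of its group on 46 and 57 probes, and rosuvastatin 5 on 52 and 47.

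**Figure D5:**
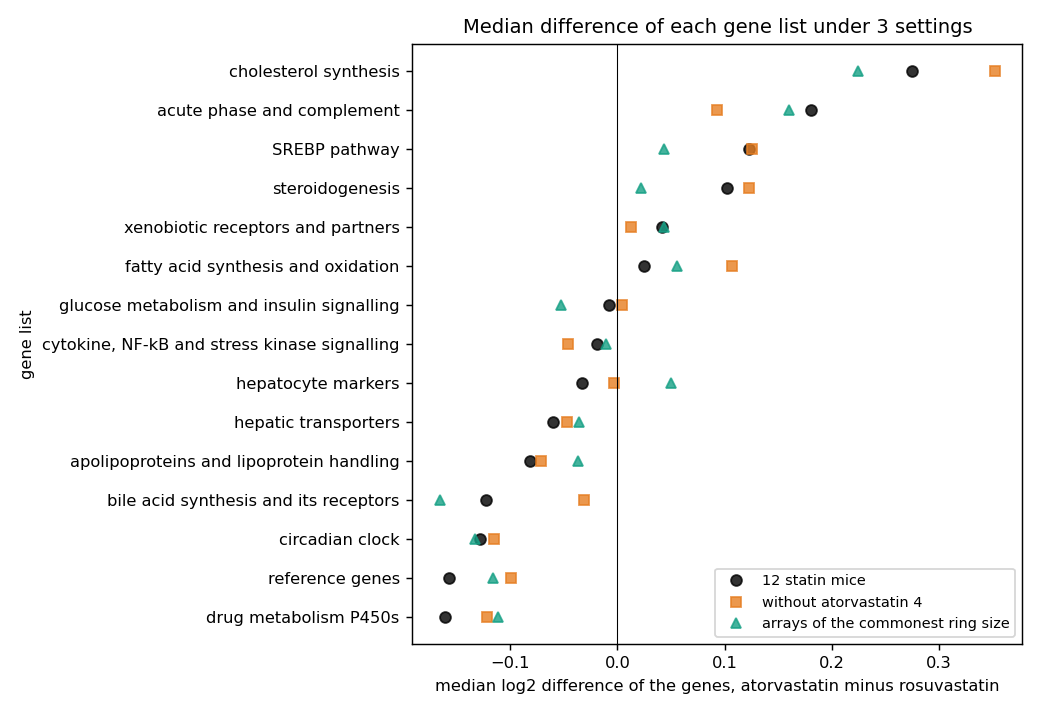
Median log2 difference of atorvastatin minus rosuvastatin (x axis) over the measured genes of the 15 lists with at least 3 measured genes (y axis), for all 12 statin mice (circles), without atorvastatin 4 (squares) and within the arrays with a 197-pixel background ring (triangles). Among the lists plotted, for all 12 mice, cholesterol synthesis has the highest median (0.27) and drug-metabolising P450s the lowest (-0.16), and glucose metabolism and hepatocyte markers change sign between the settings.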

How the data were processed

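Liver RNA of 18 mice was hybridised to Steroltalk 2-colour cDNA arrays, sample in Cy3 and a common pool in Cy5. The authors deposited spot intensity values per array, the median brightness of spot and local background in both channels, with no background removed. The number of background pixels per spot was also deposited. A deposited table of log2 ratios, sample over reference by its correlation with the scanner values (r = 0.73 to 0.97), with column medians of -0.32 to 0.56 and unstated scaling and centring, served as an alternative. The image software is not given in the sources used here.

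Background was corrected by normexp (offset 50) and log2 ratios of an array were centred along intensity by loess, for which control spots had weight 0 (R 4.3.3, limma 3.58.1). Spots of a probe were averaged. A spot counted as above background beyond local background plus 2 SDs, and a probe needed this on at least 6 of 18 arrays to be kept (188 of 289). Saturated spots were kept. All 18 arrays entered 1 limma fit with a mean per group and no block. Tests were two-sided, with Benjamini-Hochberg adjustment over 188 probes, a threshold of 0.05 and 95% intervals, whose precision the number of arrays limits. The fit was tested on simulated data.

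Names matched RefSeq symbols (GRCm38.p6) for 273 probes. The highest-intensity probe stood for a gene. Named are the 20 genes with the smallest unadjusted p, the measured members of the cholesterol synthesis, SREBP, drug P450 and xenobiotic receptor lists, the 2 members with the smallest p of each other list, and the 5 highest and 5 lowest differences; others were chosen after their values were seen. The members and lists were chosen with earlier results of these data known. A few genes named by the rule are left unreported and stay in counts and medians. Alternatives changed the background correction, normalisation, filter, weights, block and arrays. Leaving out atorvastatin 4 with vehicle 5 was chosen after seeing the data.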

Additional observations from a re-analysis of the deposited data

Results flagged for a closer look

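Within each group of 6 mice, the highest or lowest mouse was compared with the rest for each named gene by the gap to its neighbour over the whole range. By chance about 1 in 20 groups is picked out, and here 18 of 225 were. These groups are not independent, since atorvastatin 4 and rosuvastatin 3 are each counted for Saa1, Saa2 and Saa3. An excess over chance was not tested. After atorvastatin, mouse 4 stood apart for Saa1 (1.65, others -5.87 to -3.10), Saa2 (1.62), Saa3 (1.88, others -4.87 to -2.65) and Stat3 (0.41), mouse 2 for Cyp2b9 (-0.40, others 0.01 to 0.24) and mouse 6 for Cyp2b10 (0.25, others -0.01 to 0.09). After rosuvastatin, mouse 3 stood apart for Saa1 (-3.47, others -5.65 to -5.22), Saa2 (-3.52) and Saa3 (-3.03), and mouse 4 for Slco1a1 (1.10, others -0.18 to 0.24) and Cyp2a4 (-0.17, others 0.25 to 0.47). Among vehicle mice, mouse 5 was lowest for Msmo1 (-1.71, others -0.30 to 0.49), Cyp2b13 (-0.30) and Cyp3a41a (-0.39). Vehicle 6 was highest for Mbtps1 (0.20) and Idi1 (0.64) and lowest for Ncor1 (-0.43), and vehicle 2 was lowest for Cry1 (-0.52).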

How the results depend on the processing

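No probe passed the adjusted threshold of 0.05 in any of the alternatives run, with the smallest adjusted p between 0.188 and 0.991 (limma). Probes with an unadjusted p under 0.05 numbered 10 in the comparison as reported. Their number was 6 (3 higher and 3 lower) with median centring in place of loess, 0 with a shift by the spike-ins, 16 (5 higher and 11 lower) with array weights, 2 within the 197-pixel arrays and 0 in the deposited log2 ratios. With 1 array left out in turn it ran from 6 (without rosuvastatin 1) to 15 (without atorvastatin 5). The number of probes without overlap, 1 as reported, was 0 without background correction, 0 with the spike-in shift, 8 within the 197-pixel arrays (3 mice against 4) and 1 to 3 with 1 array left out (2 without atorvastatin 5 or rosuvastatin 6, 3 without rosuvastatin 4). Apoc1 ranged from -0.34 to -0.24 and had an unadjusted p under 0.05 in 30 of 32 alternatives (highest p 0.0854, limma), Ppp1r3c in 20 and Nr1i2 in 17 of 30. When 1 array was left out, list medians ran from 0.18 to 0.35 for cholesterol synthesis, from -0.21 to -0.0015 for bile acid genes, from -0.11 to -0.04 for apolipoproteins, from -0.18 to -0.10 for drug P450s and from 0.09 to 0.23 for the acute phase.

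Of 2379 values of 75 single genes under the alternatives, 2318 kept their sign and 61 did not. With array weights the sign turned for Cyp2c40 (0.0372), Cyp2e1 (-0.0214) and Ncor1 (-0.0273). It turned for Cyp2e1 (-0.00511) and Ncor1 (-0.0159) with the ring size as a block, for Adipoq (-0.00783) and Cyp2j5 (0.0203) with median centring, for Ncor1 (-0.00429) without background correction and for Cyp2j5 (0.0159) with plain background subtraction. The spike-in shift turned Adipoq (-0.0377), Ncoa1 (-0.00457), Cyp2d22 (-0.0156) and Ncor1 (-0.0012), and the deposited ratios turned Mbtps1 (0.0845), Cyp2d22 (-0.0242) and Ncor1 (-0.0117). Within the 197-pixel arrays the sign turned for Stat3 (-0.00638), Mvk (-0.0295), Cyp17a1 (-0.268), Cyp2c40 (0.0494), Cyp2j5 (0.0302) and Ncor1 (-0.00684). Without both atorvastatin 4 and vehicle 5 it turned for Cyp2c40 (0.00217), Cyp2g1 (-0.0105), Cyp2e1 (-0.00327), Cyp2d22 (-0.0231), Cyp2j5 (0.00266) and Ncor1 (-0.027). With 1 array left out in turn the differences ran from -0.0243 to 0.235 for Idi1, -0.00158 to 0.193 for Mvk, -0.0381 to 0.315 for Cyp17a1, -0.0137 to 0.218 for Sc5d, -0.00254 to 0.23 for Alas1, -0.00435 to 0.229 for Mvd, -0.171 to 0.0995 for Cyp2c40, -0.0679 to 0.0255 for Cyp2j6, -0.0162 to 0.0735 for Cyp2g1, -0.00102 to 0.0592 for Ncoa1, -0.0255 to 0.0988 for Cyp2e1, -0.0289 to 0.0744 for Cyp2d22, -0.0252 to 0.0166 for Cyp2j5 and -0.0289 to 0.033 for Ncor1. The causes were not tested.

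With the mouse number as a replicate block, 0 probes passed the adjusted threshold (smallest adjusted p 0.188, limma), 12 had an unadjusted p under 0.05 and the differences were the same. Same-numbered atorvastatin and rosuvastatin mice deviated together at r over 0.1 for 5 of 6 numbers and at -0.40 for number 3, and 2 of 6 atorvastatin mice correlated best with their own number, so the numbers were not taken as pairs.

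Limits are set by the 6 arrays per group and by the dim probes (Nr1i2, Mbtps1 and Irs1 above background on only part of the arrays). Saturation of the reference channel for Cyp3a11 and Alb also leaves the size of their ratios uncertain.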
